A study of Homo sapiens with 6 samples.

Results

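Antisense promoter R-loops are R-loop peaks that lie just upstream of a protein-coding gene and carry the strand opposite to it. A peak was taken as antisense when its midpoint fell between 1000 bp upstream and 100 bp downstream of the start of a coding gene and its strand was opposite to that of every coding gene whose window it fell in. Of the 20176 coding genes of GENCODE release 44 mapped to GRCh37, 2680 were left out because a coding gene on the other strand starts within 1000 bp, and 17496 remained eligible. These rules found 1210 antisense peaks among 10231 R-loop peaks of untreated cells and 1308 among 11085 peaks of treated cells, which is 11.8% of either list. The untreated peaks belonged to 1239 genes and the treated peaks to 1338. The numbers differ because 29 and 33 peaks fell in the windows of more than 1 gene, and 3 genes had 2 treated antisense peaks.

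The peaks came from strand-specific kethoxal-assisted single-stranded DNA sequencing (spKAS-seq) of wild-type HEK293T, a line of human embryonic kidney origin. Treated cells received 10 μM N2-heptynyl-dG, a deoxyguanosine with an alkyl group on N2 that cells build into their DNA, for 3 h, and untreated cells received none. Cells of either group were then exposed to 5 mM N3-kethoxal for 10 min. The labels name 2 samples of untreated cells, 2 of treated cells and 2 inputs, but 1 list of peaks per condition was analysed here, so no value below has a spread between samples and no test between conditions was made. The lists hold positions and strands only, and the read depth and signal behind a peak are unknown.

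In an R-loop, RNA stays paired with the DNA strand it was copied from, which leaves the other strand displaced and single. N3-kethoxal labels guanines that are not base-paired, so the displaced strand can be captured with its orientation. Most mammalian promoters start transcription in both directions. The upstream antisense RNA is usually short and unstable, is ended early at polyadenylation signals, and is not kept long by the splice sites that protect the coding transcript. Some of these antisense RNAs are spliced and stable enough to be annotated as long noncoding RNAs (lncRNAs), whose names often end in DT, for divergent transcript, or AS, for antisense.

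The sequences below show what single antisense peaks contain on their own strand. They were read from GRCh37 at peaks with the same borders in both lists. With 1 chromosome left out of all choices of sequences, 510 such peaks remained, of which 295 had a central stretch of 200 bases clear of annotated exons, and the 3 with the highest GC skew and 1 from the low end are shown, GC skew being (G − C)/(G + C) counted along the peak strand. Capitals mark runs of at least 3 G in the first 3 and runs of at least 3 C, which are G runs of the opposite strand, in the other. RSPH4A encodes a radial spoke protein of cilia, and its stretch at chr6:116937232-116937431 on the minus strand had 86 G and 22 C, a skew of 0.593. EXOSC9 encodes a subunit of the RNA exosome, which degrades upstream antisense RNA among others, and its stretch at chr4:122721946-122722145 on the minus strand had a skew of 0.476. CUL3 encodes the scaffold of a ubiquitin ligase, and its stretch at chr2:225450517-225450716 on the plus strand had a skew of 0.466 and holds a G-quadruplex motif, that is 4 runs of at least 3 G with 1 to 7 bases between them.
RSPH4A: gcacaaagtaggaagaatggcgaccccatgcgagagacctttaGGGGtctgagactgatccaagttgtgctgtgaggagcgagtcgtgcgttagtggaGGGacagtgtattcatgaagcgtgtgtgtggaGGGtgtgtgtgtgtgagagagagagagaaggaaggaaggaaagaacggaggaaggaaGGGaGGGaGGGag
EXOSC9: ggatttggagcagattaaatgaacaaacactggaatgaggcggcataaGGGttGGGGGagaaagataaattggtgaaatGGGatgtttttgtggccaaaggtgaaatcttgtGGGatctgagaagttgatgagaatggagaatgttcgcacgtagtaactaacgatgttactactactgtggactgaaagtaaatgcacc
CUL3: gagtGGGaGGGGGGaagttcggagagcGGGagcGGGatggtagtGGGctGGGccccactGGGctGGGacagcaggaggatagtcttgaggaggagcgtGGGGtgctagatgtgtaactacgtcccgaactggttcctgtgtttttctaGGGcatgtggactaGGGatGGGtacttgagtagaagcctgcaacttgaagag
STK38 encodes a serine/threonine kinase, and its stretch at chr6:36515401-36515600 on the plus strand had 24 G and 45 C, a skew of -0.304, and a GC content of 34.5%.
STK38: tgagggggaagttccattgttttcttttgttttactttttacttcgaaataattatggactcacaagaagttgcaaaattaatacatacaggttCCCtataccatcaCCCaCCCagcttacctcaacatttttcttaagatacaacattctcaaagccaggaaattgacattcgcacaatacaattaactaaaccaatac

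An annotated lncRNA on the peak strand started inside 63 of these 510 peaks that also had 120 exon-free bases before that start. The 3 widest are shown with the 120 bases upstream of the lncRNA start, that is the promoter side of the antisense RNA, read on its strand. Capitals mark the GC box (GGGCGG), the box read as CCAAT and the promoter element read as TATAAA, or their reverse complements. The stretch opposite RAP1GDS1, a guanine nucleotide exchange protein gene, at chr4:99182367-99182486 on the minus strand had a GC content of 80.8% and GC boxes on both strands. The stretch before SP2-DT, opposite the transcription factor gene SP2, at chr17:45973211-45973330 on the minus strand had a GC content of 53.3% and 1 CCAAT box in reverse. The stretch opposite POLDIP3, which encodes a DNA polymerase delta interacting protein, at chr22:43011130-43011249 on the plus strand had a GC content of 35.8% and none of the 3 motifs.
RAP1GDS1: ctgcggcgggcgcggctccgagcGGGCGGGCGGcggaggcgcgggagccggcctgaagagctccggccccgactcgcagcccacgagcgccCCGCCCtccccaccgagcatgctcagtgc
SP2: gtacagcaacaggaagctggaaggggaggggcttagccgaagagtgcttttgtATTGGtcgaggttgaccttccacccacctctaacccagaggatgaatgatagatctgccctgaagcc
POLDIP3: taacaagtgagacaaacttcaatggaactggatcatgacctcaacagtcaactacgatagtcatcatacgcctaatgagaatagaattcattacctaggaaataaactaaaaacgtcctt

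Around coding gene starts, the peaks of the opposite strands formed separate groups. In the untreated list, the bins of 100 bp with the most antisense peaks lay 400 to 300 bp and 300 to 200 bp upstream of the start, with 273 and 274 peaks. In the treated list these bins held 301 and 276 peaks. The median midpoint of the antisense peaks lay upstream of the start at an offset of -322.5 bp in both lists, with an interval of -332.5 to -310.5 in the untreated and -335.5 to -313.5 in the treated list. The middle 50% of the antisense peaks lay at offsets between -452.5 and -218.5 in untreated and between -456.5 and -215.5 in treated cells. At the upstream edge of the window, 19 untreated antisense peaks lay in the last 100 bp inside and 12 in the first 100 bp outside, against 20 and 15 treated peaks. At the downstream edge, 42 untreated peaks lay inside and 35 outside, against 55 and 54 treated peaks. Intervals here and below are 95% Wilson or Newcombe intervals of shares and distribution-free intervals of medians, which cover counting error over peaks or genes only.

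**Figure D1:**
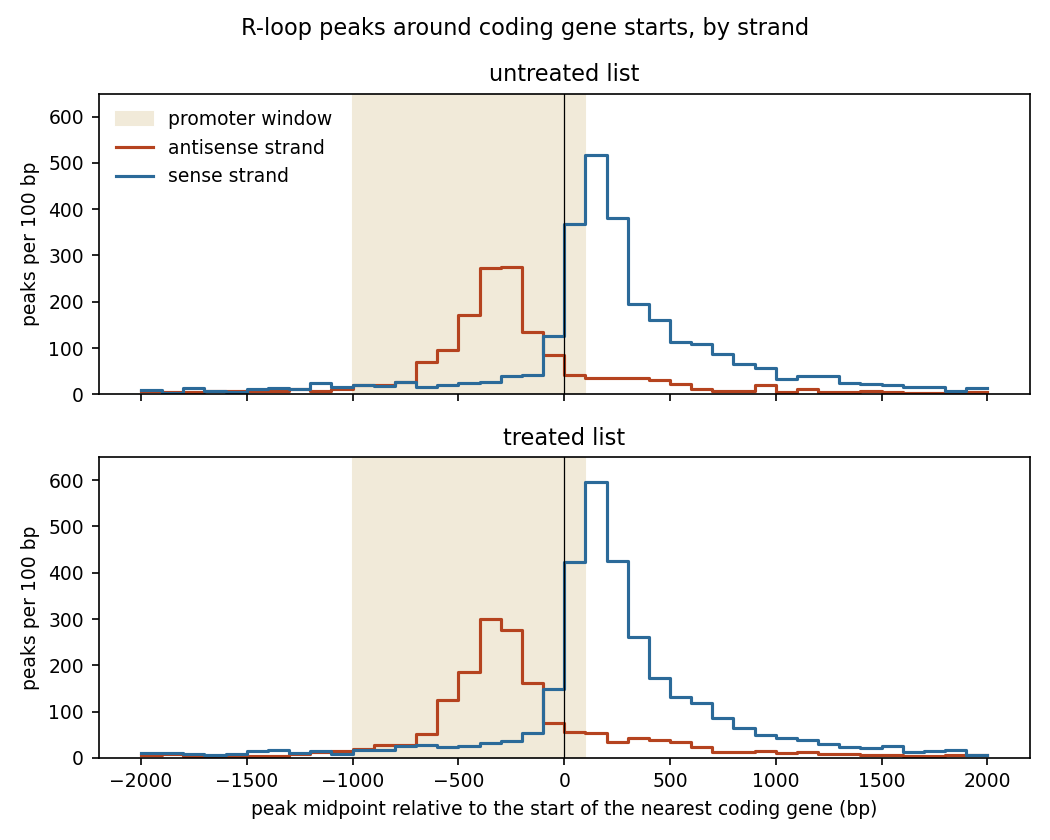
Number of R-loop peaks per 100 bp (vertical axis) by the distance of the peak midpoint from the nearest eligible coding gene start in bp (horizontal axis, upstream negative), for peaks on the strand opposite to the gene and on the strand of the gene, in the untreated and the treated list. The shaded band is the promoter window. Antisense peaks gather 200 to 400 bp upstream, while sense peaks are most frequent 100 to 200 bp downstream, outside the window, with 517 untreated and 596 treated peaks in that bin.

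The meaning of the strand in the lists is not given in the sources used here, and it was inferred to be the direction of transcription from peaks inside coding genes. Past the window and up to 2000 bp downstream of the start, 87.9% of 2182 untreated peaks and 86.2% of 2476 treated peaks had the strand of the gene. Within the promoter window the order was the opposite, with 62.3% of promoter peaks antisense in untreated cells (1210 of 1942, interval 60.1% to 64.4%) and 61.3% in treated cells (1308 of 2135, 59.2% to 63.3%). A further 3 untreated and 2 treated peaks had a gene on either strand and were set apart. Farther upstream, from the edge of the window to 2000 bp, 40.2% of untreated and 38.5% of treated peaks were antisense. The window leaves out the sense peaks more than 100 bp downstream, and the antisense share depended on that. It was 39.8% in untreated and 38.9% in treated cells when any overlap of a peak with the window counted. The share also depended on the starts used. With the starts of all protein-coding transcripts and the same window, it was 47.1% in untreated and 45.9% in treated cells, so antisense peaks were then the minority.

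The treated list held 98 more antisense peaks than the untreated list, or 8.10% more, beside 8.35% more peaks in all and 13.0% more sense promoter peaks. The antisense peaks thus took the same share of all peaks, 11.8%, in either condition. Of all eligible genes, 7.08% had an antisense peak in the untreated list and 7.65% in the treated list, against 4.32% and 4.88% with a sense peak in the window. An antisense peak was present in both lists at 920 genes, in the untreated list alone at 319 and in the treated list alone at 418, out of 1657 genes with an antisense peak in either. At 19 of the 319 and 26 of the 418 genes, the peak overlapped a peak of the other list whose midpoint fell outside the rule. The difference in number between the lists cannot be set against a spread between samples.

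Most antisense peaks were found in both conditions. In the untreated list, 910 of 1210 antisense peaks overlapped a treated peak of the same strand by at least 1 bp, and 300, or 24.8% (22.4% to 27.3%), did not, beside 25.4% of all untreated peaks. In the treated list, 391 of 1308, or 29.9% (27.5% to 32.4%), had no untreated partner, beside 30.8% of all treated peaks. The antisense share without a partner differed from that of all other peaks by -0.66 points (-3.18 to 2.00) for untreated and -0.996 points (-3.59 to 1.70) for treated cells. It was higher than among sense promoter peaks, of which 15.3% of untreated and 24.4% of treated peaks had no partner, by 9.49 points (5.85 to 13.0) and 5.47 points (1.58 to 9.25). Sense peaks were wider, and between peaks of 500 bp the difference was 6.90 points (0.95 to 12.5) in the untreated list and -0.49 points (-6.47 to 5.38) in the treated list. Only 7 untreated and 6 treated antisense peaks without a partner overlapped a peak of the opposite strand in the other list.

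Antisense peaks were narrow, and the narrow ones most often lacked a partner. Width averaged 663 ± 264 bp (SD over 1210 peaks) in untreated and 653 ± 256 bp (SD over 1308 peaks) in treated cells, with a median of 500 bp against 750 bp for sense promoter peaks and for all peaks. Peaks of 500 bp, the smallest common width, made up 60.3% of untreated and 61.5% of treated antisense peaks. Of the untreated antisense peaks, 33.2% of those of 500 bp, 12.5% of those of 750 bp, 15.5% of those of 1000 bp and 5.41% of those of 1250 bp or more had no treated partner. The treated peaks gave 38.9%, 18.7%, 14.0% and 1.61%. Among all peaks, 25.1% of untreated and 29.3% of treated peaks of 750 bp had no partner, above the interval of the antisense peaks of that width (9.28% to 16.7% and 14.8% to 23.2%), while sense promoter peaks of that width gave 8.74% and 15.4%. At 500 bp and 1000 bp, all untreated peaks gave 36.0% and 23.3%, within the antisense intervals (29.8% to 36.6% and 9.79% to 23.8%), and all treated peaks gave 45.4% and 22.7%, above them (35.6% to 42.3% and 8.83% to 21.6%). At 1250 bp or more, the shares of all peaks, 7.39% and 6.11%, lay within the antisense intervals in both lists.

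**Figure D2:**
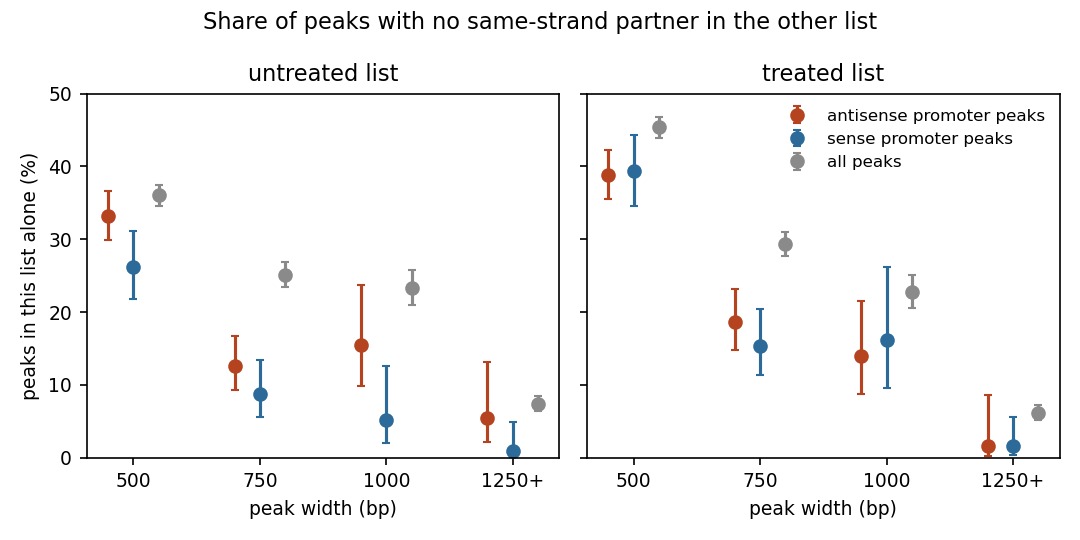
Share of peaks with no same-strand peak in the other list in percent (vertical axis) by peak width in bp (horizontal axis), for antisense promoter peaks, sense promoter peaks and all peaks, in the untreated and the treated list. Points are shares and bars 95% Wilson intervals. Among antisense peaks the share is highest at 500 bp, 33.2% and 38.9%, and lowest at 1250 bp or more, 5.41% and 1.61%.

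The borders of shared antisense peaks did not shift in 1 direction. Identical start, end and strand in both lists were found for 525 antisense peaks, which is 43.4% of the untreated and 40.1% of the treated ones, beside 44.1% and 39.1% of sense promoter peaks and 32.2% and 29.7% of all peaks. Of 906 pairs in which either peak overlapped no other, 170 were wider in the treated list, 176 were narrower, 525 had the same borders, and 35 kept their width but moved. The border nearer to the gene lay farther out in the treated list in 91 pairs and farther in for 84. The far border lay farther out in 132 pairs and farther in for 145.

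The 6 antisense peaks taken as the widest, ranked among shared peaks by their untreated width, were long in both lists. Several of them lay beyond the end of another gene on their strand. The widest of all was opposite TRABD2A, a gene for a membrane protease that acts on Wnt proteins, at chr2:85132818-85135567 on the plus strand, 2750 bp in both lists, past the 3′ end of TMSB10, which encodes an actin-binding thymosin. The peak of CLIC3, a chloride intracellular channel gene, was 2250 bp wide in either list with borders moved by 250 bp, past the end of PAXX, a gene of DNA end joining. The peak of MCCD1, 2000 bp wide and the same in both lists, lay past the end of DDX39B, which encodes an RNA helicase of mRNA export. TYMP, the gene of thymidine phosphorylase, had an antisense peak of 2250 bp in the untreated and 2000 bp in the treated list, with no annotated gene on its strand. PCIF1, which encodes a cap methyltransferase, had one of 2000 bp and 2250 bp within an annotated lncRNA gene, and TAF12, a subunit gene of TFIID, one of 1750 bp with the same borders in both lists. The untreated peak of ZNF143 had the same width as that of TAF12, 1750 bp, but the treated peak that overlapped it was 500 bp wide. Of the 30 untreated antisense peaks of at least 1500 bp, 15 lay in an lncRNA gene and 4 within 5000 bp past a coding gene, and of the 28 treated ones 6 and 6.

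Among antisense peaks of the untreated list alone, the widest was that of THOC1, which encodes a subunit of the THO complex of mRNA export. It spanned chr18:268234-269733 on the plus strand, 1500 bp, in the lncRNA gene THOC1-DT. UGDH, the gene of UDP-glucose dehydrogenase, had a peak of 1250 bp in UGDH-AS1 whose midpoint lay 65.5 bp downstream of the gene start. FBXW2, an F-box gene, and PPP2R5C, a gene for a regulatory subunit of protein phosphatase 2A, had peaks of 1250 bp centered 707.5 and 654.5 bp upstream. The FBXW2 peak lay in B3GALT9, a coding gene of the peak strand. FBXW2 had a sense peak of 500 bp in the treated list, where it had no antisense peak. The PPP2R5C peak had a GC content of 74.2% and a GC skew of -0.379, and it lay in an lncRNA gene. INTS3, which encodes a subunit of the Integrator complex that cleaves nascent RNA, had a peak of 1000 bp that met a sense peak of 500 bp at its border. A coding gene without a symbol on chromosome 1 also had one of 1000 bp, in an lncRNA gene. In all, 16 antisense peaks of the untreated list alone were 1000 bp wide.

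Antisense peaks of the treated list alone reached 1250 bp at a coding gene without a symbol on chromosome 7, at chr7:72458039-72459288 on the minus strand. The next 5 named here were 1000 bp wide, out of 16 antisense peaks of that width in the treated list alone. PDIK1L and SLK encode protein kinases and had peaks centered 509.5 and 499.5 bp upstream, that of SLK in an lncRNA gene. DIPK1A and COMMD10 had peaks centered 568.5 and 199.5 bp upstream, each in an lncRNA gene, and SH3BP5L had one 833.5 bp upstream with no annotated gene on its strand. PDIK1L had a sense peak of 750 bp in the untreated list, where it had no antisense peak.

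The strand of most antisense peaks carried no annotated gene. The midpoint lay in no gene of the peak strand for 57.5% of untreated (54.7% to 60.3%) and 57.6% of treated antisense peaks (54.9% to 60.3%), leaving out the 2.07% and 1.99% that lay up to 5000 bp past the 3′ end of a coding gene. An lncRNA gene of the peak strand held 31.3% (28.8% to 34.0%) and 30.7% (28.3% to 33.3%), and 180 of 379 and 190 of 402 of these had names with the suffix DT or AS, with or without a number. Another coding gene of the peak strand held 7.44% and 7.72%, such as DYNLL1 at the peak of SRSF9, HIRA at that of MRPL40, and HSPD1 at that of HSPE1. Peaks of other gene types made up 1.65% and 1.91%. Untreated antisense peaks in an lncRNA gene lacked a treated partner less often than those in no gene, 21.1% against 26.9%, a difference of -5.76 points (-10.9 to -0.35). In the treated list the shares were 26.1% and 30.9%, with a difference of -4.78 points whose interval of -10.1 to 0.74 includes 0.

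Genes with an annotated lncRNA start on the opposite strand within 1000 bp upstream had antisense peaks more often than genes without. Such a start was present at 8.65% of all eligible genes, at 22.9% of genes with an untreated antisense peak (20.7% to 25.3%) and at 23.1% of genes with a treated one (20.9% to 25.4%). Genes with a sense peak alone had it in 11.4% and 12.4%, which is lower than antisense genes by 11.5 points (8.08 to 14.8) and 10.7 points (7.35 to 13.8). Counted from the other side, 18.8% of the 1513 genes with an lncRNA start and 5.98% of the 15983 genes without had an antisense peak in the untreated list, a difference of 12.8 points (10.9 to 14.9). In the treated list these were 20.4% and 6.44%, a difference of 14.0 points (12.0 to 16.1). The peak midpoint lay downstream of the lncRNA start in 251 of 281 untreated and 264 of 305 treated cases, at a median of 180.5 bp in both lists. How far expression of the genes accounts for the difference was not tested.

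**Figure D3:**
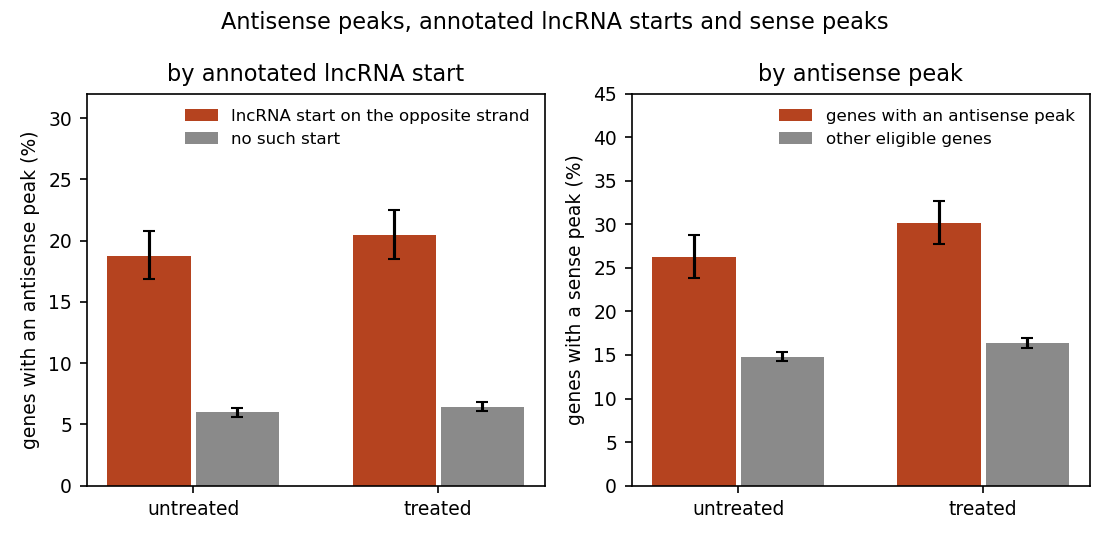
Left, percent of genes with an antisense peak (vertical axis) among genes with and without an annotated lncRNA start on the opposite strand, in the untreated and the treated list. Right, percent of genes with a sense peak from 1000 bp upstream to 2000 bp downstream of the start, among genes with an antisense peak and other eligible genes. Bars are shares with 95% Wilson intervals. The left bars are 18.8% against 5.98% and 20.4% against 6.44%, and the right bars 26.2% against 14.8% and 30.1% against 16.4%.

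Within the promoter window, genes with an antisense peak had a sense peak about as often as all eligible genes did, while with the region downstream included they had one more often. Of the genes with an antisense peak, 63 of the untreated list, or 5.08% (3.99% to 6.45%), and 65 of the treated list, or 4.86% (3.83% to 6.14%), also had a sense peak in the window, beside 4.32% and 4.88% of all eligible genes. This share depended on the rule. It was 17.9% and 20.1% when any overlap with the window counted, and 14.3% and 16.0% with the starts of all protein-coding transcripts. With peaks of at least 750 bp only, it was 0.61% and 0.78%. No share of all eligible genes is given here for these rules. With sense peaks counted to 2000 bp downstream, 26.2% of untreated antisense genes (23.9% to 28.8%) had a sense peak, against 14.8% of the other eligible genes, a difference of 11.4 points (8.98 to 14.0). In the treated list 30.1% and 16.4% had one, a difference of 13.7 points (11.2 to 16.3). Most antisense genes, however, had no sense peak in this range in either list.

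Where a gene had both peaks, they usually met at a border. Of 312 untreated antisense peaks with a sense peak of their gene, 220, or 70.5% (65.2% to 75.3%), ended at the base next to it, and 25 overlapped it. Of 388 treated ones, 259, or 66.8% (61.9% to 71.3%), touched it and 40 overlapped it. The median distance between midpoints was 625 bp in both lists. DDX27, an RNA helicase gene, had an antisense peak at chr20:47835335-47835834 on the minus strand and a sense peak at chr20:47835835-47836334 on the plus strand, with the same borders in both lists. EIF1B, a translation initiation factor gene, and HSPE1, the gene of a mitochondrial cochaperonin, likewise had touching pairs in both lists. At ID4 and REV3L the opposite peaks overlapped by 250 bp in either list. Nearly all widths are multiples of 250 bp, and the part of such a grid of windows in the shared borders was not tested.

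Antisense peaks, like sense promoter peaks and all peaks, had a median GC skew at or below 0 on their own strand. The median GC content was 57.6% (57.2% to 58.0%) in untreated and 58.4% (58.0% to 59.0%) in treated cells, below that of sense promoter peaks, 62.0% and 62.8%, and above that of all peaks, 56.2% and 57.6%. The median GC skew on the peak strand was -0.0084 (-0.0157 to 0) in untreated and -0.0222 (-0.0303 to -0.0139) in treated cells, beside -0.0063 and -0.0191 for sense promoter peaks and 0 and -0.0133 for all peaks. A skew above 0 was found in 46.0% and 40.4% of antisense peaks and in 49.2% and 43.9% of all peaks. A G-quadruplex motif was found on the peak strand of 17.2% of untreated and 19.5% of treated antisense peaks and on the other strand of 25.4% and 27.6%. Sense promoter peaks held it on the peak strand in 25.5% and 27.5% and on the other in 34.0% and 40.2%, and all peaks in 18.2% and 19.3% and in 23.6% and 26.6%. In antisense peaks it was on the peak strand alone in 152 and 172 peaks and on the other strand alone in 251 and 278. The share on the peak strand differed between antisense and sense peaks by -8.36 points (-12.2 to -4.60) in the untreated list and -7.99 points (-11.7 to -4.30) in the treated list. Sense peaks are wider, and at equal width the share on the peak strand was again lower in antisense peaks, by an amount that varied. Peaks of 500 bp gave 14.8% against 17.1% in the untreated and 16.3% against 18.9% in the treated list. Peaks of 750 bp gave 19.5% against 29.1% and 24.5% against 30.9%. Those of 1000 bp gave 15.5% against 28.6% and 22.8% against 33.8%. The separate intervals of the shares overlap in each case, which does not settle whether the shares differ. No interval of the difference was taken at equal width. On the other strand, peaks of 500 bp gave 20.8% (18.0% to 23.9%) against 29.8% (25.2% to 34.9%) and 23.2% (20.4% to 26.3%) against 37.0% (32.3% to 42.0%). At 750 bp they gave 25.7% against 40.3% and 33.0% against 40.7%, and at 1000 bp 40.8% against 31.2% and 32.5% against 44.6%, so the untreated order was the opposite at 1000 bp.

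The base composition of antisense peaks found in 1 list is given as a description, since peaks of a list are not replicates of its condition. Those of the untreated list alone had a median GC content of 56.3% (55.2% to 57.8%) and a median skew of 0.0069 (-0.0037 to 0.0272). Those of the treated list alone had 59.3% (58.4% to 60.6%) and -0.0226 (-0.0331 to -0.0088). A G-quadruplex motif on the peak strand was present in 40 of 300 and 89 of 391 of these peaks, beside 24 of 112 and 46 of 201 sense promoter peaks of 1 list alone. Among peaks of 500 bp, the medians were 56.6% and 59.4% for GC content and 0.0096 and -0.0228 for skew. In GC content and skew, all other peaks differed in the same direction, from 52.8% (52.2% to 53.4%) and 0.0198 in the untreated list alone to 58.2% (57.7% to 58.8%) and -0.0204 in the treated list alone. With 1 list per condition, the treatment and differences between libraries cannot be told apart here.

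**Figure D4:**
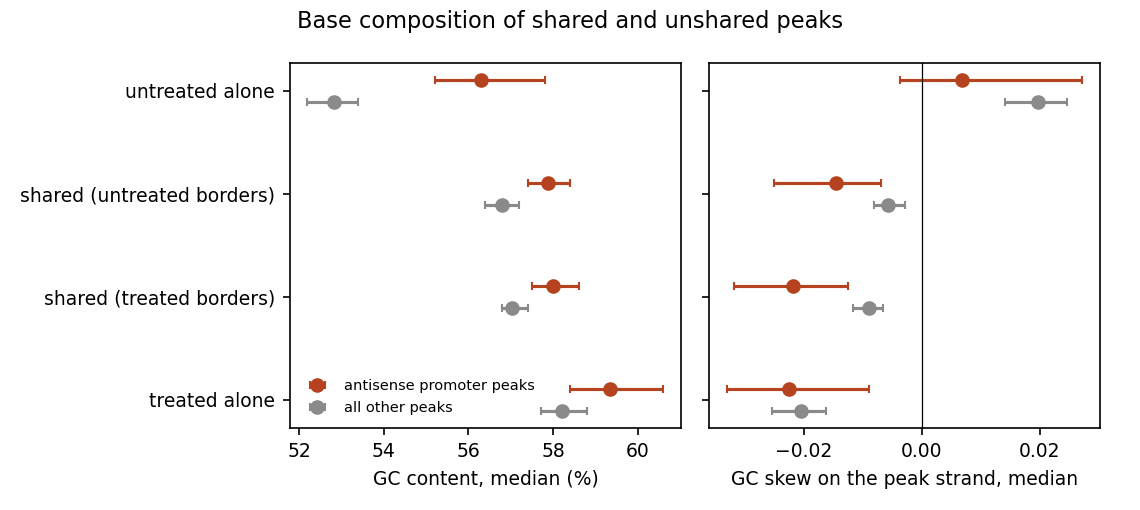
Median GC content in percent (left) and median GC skew on the peak strand (right) of peaks found in the untreated list alone, peaks shared by both lists with their untreated or treated borders, and peaks found in the treated list alone, for antisense promoter peaks and all other peaks. Bars are distribution-free 95% intervals of the median. GC content is higher and skew lower in peaks of the treated list alone than in those of the untreated list alone, for antisense peaks and for all others.

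Promoters with an antisense peak were set beside all eligible promoters over the 1000 bp upstream of the start, with sequence for 17472 genes. The motifs were searched on the gene strand and on the opposite strand, which is that of the antisense RNA, and matches of AATAAA and TATAAA can share bases. GGGCGG, the GC box, was present on the gene strand in 60.9% of promoters with an untreated and 63.8% with a treated antisense peak, against 40.2% of all promoters. On the opposite strand it was present in 56.3% and 57.6%, against 41.0%. Compared with promoters that had only a sense peak, it was more frequent on the gene strand, by 9.92 points (5.31 to 14.5) and 11.6 points (7.26 to 15.9), and less frequent on the opposite strand, with differences of -5.51 points (-10.0 to -0.93) and -6.54 points (-10.8 to -2.24). AATAAA, the polyadenylation signal, was on the opposite strand in 35.2% and 36.6%, against 40.1% of all promoters, and the difference from promoters with a sense peak alone had intervals that include 0 (-3.25 points, -7.76 to 1.21, and 0.03 points, -4.24 to 4.23). GGTAAG, a 5′ splice site sequence, was on the opposite strand in 9.77% and 9.49%, against 11.6% of all promoters and 13.3% and 13.2% of promoters with a sense peak alone, and differed from the latter by -3.53 points (-6.66 to -0.60) and -3.72 points (-6.66 to -0.96). TATAAA was on the opposite strand in 22.0% and 20.6%, against 25.7%, and CCAAT in 46.7% and 48.1%, against 48.8%. The difference from promoters with a sense peak alone was -6.38 points (-11.0 to -1.73) and -3.20 points (-7.59 to 1.20) for CCAAT, and 1.80 points (-2.05 to 5.50) and 1.44 points (-2.13 to 4.88) for TATAAA. On the gene strand, AATAAA was in 41.4% and 40.1%, against 44.3% of all promoters, and TATAAA in 23.7% and 22.0%, against 28.4%. CCAAT was there in 52.5% and 50.9%, against 48.9%, and GGTAAG in 11.8% and 12.2%, against 12.2%. The median number of CpG per 100 bases was 4.8 and 5.0, against 2.8 for all promoters and 4.1 for promoters with a sense peak alone in either list. These comparisons are not adjusted for base composition.

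The share of members with an antisense peak varied between gene lists, and no test of a list was made. Against 7.08% and 7.65% of all eligible genes, heat shock protein genes had it at 9 and 10 of 53, SR, hnRNP and other spliceosome genes at 8 and 11 of 59, and genes matched as translation factors at 9 and 10 of 53, where the name match also took EIF2AK4, a kinase, and EEF1AKMT2, a methyltransferase. All 9 heat shock genes of the untreated list had it in both lists, among them DNAJA2, DNAJB5, HSPB9 and HSPE1. The HSPB9 peak lay in a coding gene of the peak strand without a symbol, and that of HSPE1 in HSPD1. The DNAJA2 peak, in DNAJA2-DT, measured 1500 bp without and 750 bp with treatment, while the DNAJB5 peak, in DNAJB5-DT, was 1000 bp with the same borders. Of the spliceosome genes, SRSF9 had a peak of 750 bp in the untreated and of 1000 bp in the treated list and HNRNPA3 one of 750 bp and 500 bp, HNRNPM kept the same 500 bp, and HNRNPA0 had its 750 bp in the treated list alone.

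Of 67 eligible genes of cytosolic ribosomal proteins, RPS23 alone had an antisense peak, beside 7.08% and 7.65% of all eligible genes. The peak was 500 bp wide with the same borders in both lists and lay past the end of ATG10. Of the 67 genes, 12 had a sense peak in the window without and 9 with treatment, beside 4.32% and 4.88% of all eligible genes. Mitochondrial ribosomal protein genes had an antisense peak at 4 of 51 in either list, or 7.84%. These were MRPS14 and MRPL40 in both, MRPS15 and MRPS35 in the untreated and MRPL48 and MRPS33 in the treated list. MRPS35 and MRPS33 were named after their values were seen. Replication-dependent histone genes had it at 1 of 40, H4C8. Signaling ligand genes had it at 1 of 77, the Notch ligand gene DLL1, whose peak lay in the coding gene FAM120B of the peak strand. ZNF zinc-finger genes had it at 38 and 40 of 457, close to the share of all genes, and 26 of these were the same genes. ZNF143, a transcription factor gene, had a peak of 1750 bp in the untreated list that overlapped a treated peak of 500 bp, whose midpoint fell outside the rule.

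Developmental transcription factor genes, chosen by family name, had an antisense peak at 11 of 240 without and 18 of 240 with treatment, or 4.58% and 7.50%, beside 7.08% and 7.65% of all eligible genes. All 11 were also in the treated list, among them FOXF1, LHX4, DLX1 and ISL1. The FOXF1 peak spanned 1250 bp in the untreated and 1000 bp in the treated list, that of LHX4 1250 bp and 750 bp, that of ISL1, in ISL1-DT, 750 bp and 1000 bp, and that of DLX1 1000 bp with the same borders. The 7 genes of the treated list alone were DLX6, FOXN2, HOXA11, MEIS1, MSX2, POU2F1 and SOX12, which were named after their values were seen. The 7 genes are few, no test of the difference was made, and over all eligible genes 418 of 1338 genes of the treated list and 319 of 1239 of the untreated list were likewise in that list alone. Of 4 ID genes, ID4 had an antisense peak of 500 bp with the same borders in both lists. Of 21 immediate early genes, KLF6 had it in both lists, 1500 bp and 1000 bp, and JUND in the untreated list alone. JUND had a sense peak of 500 bp in the treated list, where it had no antisense peak.

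The R-loop, helicase and DNA repair lists are small and are set beside the 7.08% and 7.65% of all eligible genes. Of 27 R-loop processing genes, 3 had an antisense peak without and 5 with treatment, or 11.1% and 18.5%. SRSF1, a splicing factor gene, and TOP1, the gene of DNA topoisomerase I, had one in both lists and were named after their values were seen. THOC1 was in the untreated list alone, and XRN2, which encodes a nuclear exonuclease of transcription termination, the helicase gene BLM and DDX39B were in the treated list alone. XRN2 had a sense peak of 750 bp in the untreated list and none in the treated list, where its antisense peak was 750 bp wide. The BLM and DDX39B peaks of 500 bp each touched a sense peak. Of 40 DEAD and DEAH helicase genes, 3 and 5, or 7.50% and 12.5%, had an antisense peak, with DDX27, DDX46 and DDX6 at the same borders of 500 bp in both lists. Of 19 nucleotide excision repair genes, RAD23B had it in both lists and ERCC2 in the untreated list alone, and of 5 translesion synthesis genes, REV3L and POLI had it with the same borders in both lists. Of 33 proteasome genes, 4 and 3 had one, with PSMB3 at the same borders and PSMD2 at 750 bp without and 1250 bp with treatment. Among the genes the study examined, KBTBD6, CHERP, CLSPN, GAPDH, DDX23 and DDX5 had no antisense peak in either list, CHERP had a sense peak in the treated list, and ENTPD5 was left out for a coding gene starting near it on the other strand.

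**Figure D5:**
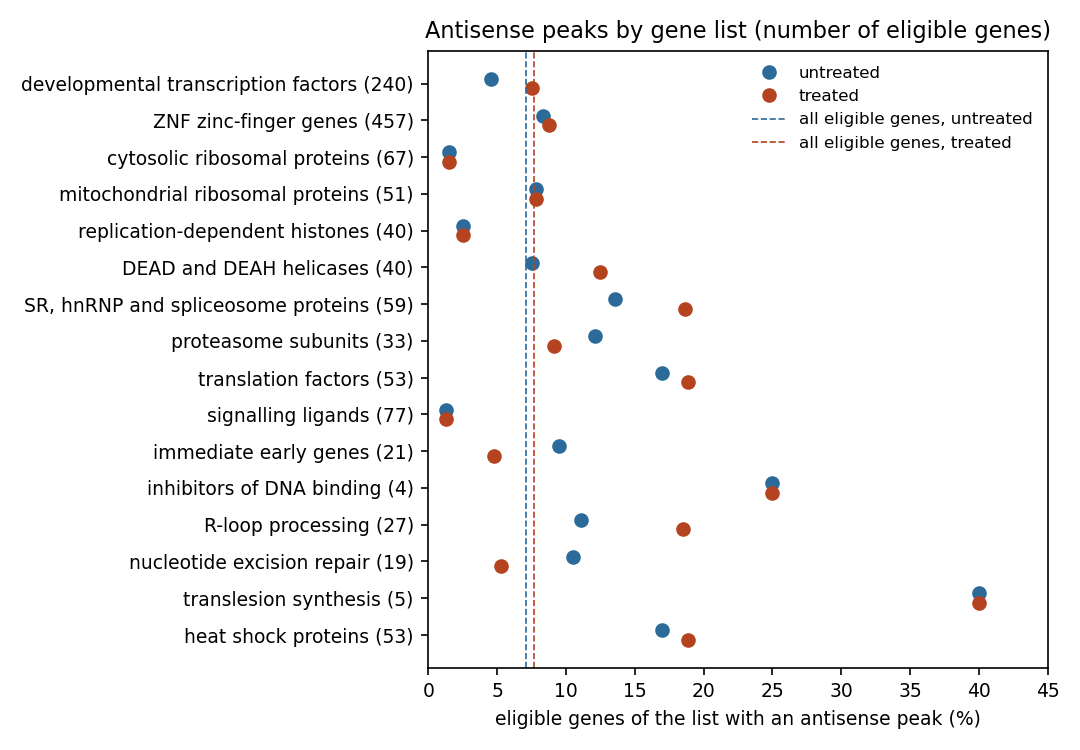
Percent of eligible genes with an antisense peak (horizontal axis) for each of 16 gene lists (rows, number of eligible genes in parentheses), in the untreated and the treated list. Dashed lines mark all eligible genes, 7.08% and 7.65%. The lists of 4 and 5 genes hold 1 and 2 genes with a peak, so their positions are coarse.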

How the data were processed

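Per the submitters' processing notes and the methods, spKAS-seq reads went through Trim Galore, Bowtie2 (build hg19) and Picard, and the authors defined R-loops from 2 replicates by a procedure published before, whose settings are not given in the sources used here. The deposited lists give coordinates and strand in 4 columns, with no score or signal, so depth is unknown. GEO ties either list to the first replicate, and it stands here for its condition. Widths are multiples of 250 bp except in 6 untreated and 3 treated peaks. The probe needs guanine on the displaced strand, which can bear on base composition.

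The hg19 coordinates were used with the GRCh37 sequence and GENCODE release 44 mapped to it. Peaks were placed by midpoint from 1000 bp upstream to 100 bp downstream of gene starts and were shared from 1 bp of overlap on the same strand. Peaks with over 50% undetermined bases (N), or with no sequence in the genome file, were left out of base composition. Peaks were handled in Python 3.11.15 (pandas 2.3.3, numpy 2.4.6), sequence with pysam 0.24.0 and samtools 1.23.1, intervals with scipy 1.17.1 and plots with matplotlib 3.10.9, and the placing and overlap steps were tested on simulated data. The rule for single genes took the 6 widest shared peaks by untreated width and the 6 widest of each list alone, genes with 3 or more antisense peaks (none), at most 4 genes of each of 16 gene lists by width, and the genes of the study, and for sequences the peaks described beside them, of which 1 is not reported here. The members and lists were chosen with earlier results of these data known.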

Additional observations from a re-analysis of the deposited data

How the results depend on the processing

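Of 95 recomputed values under 9 alternatives, 74 stayed within the interval of the reported value or, for counts, within 1.5 times of it, and 21 did not. With peaks of at least 750 bp only in both lists, the antisense peaks numbered 480 untreated and 503 treated, their share of promoter peaks was 55.0% and 53.0%, and 36.0% and 38.6% had no partner, since narrow partners are also removed. The genes with an antisense and a sense peak in the window were then 0.61% and 0.78%. When any overlap with the window counted, the antisense share was 39.8% and 38.9% and the genes with both peaks 17.9% and 20.1%, since sense peaks centered downstream enter. With the starts of all protein-coding transcripts, the share was 47.1% and 45.9%, the genes with both peaks 14.3% and 16.0%, the treated peaks without a partner 32.5%, and the median skew -0.0189 and -0.0323, and the cause was not tested. With 500 bp upstream, the genes with both peaks were 3.20% and 3.06%, and the cause was not tested. No paired analysis was possible because 1 list per condition was analysed here, which also leaves no sample to leave out. The lists give no depth, so the absence of a peak cannot be told from a peak below the calling threshold.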

Other observations

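Among the autosomes and chromosome X, the share of eligible genes with an untreated antisense peak was lowest on chromosome 19, at 4.43%. It was highest on chromosome 2, at 10.4%. In the treated list the share was 4.35% and 10.7% on these chromosomes. Chromosome 19 holds 1264 eligible genes and chromosome 2 holds 1072. No antisense peak lay on chromosome Y or on unplaced contigs. Antisense peaks were split evenly between strands, with 610 of 1210 untreated and 656 of 1308 treated peaks on the plus strand. Of the 319 genes with an antisense peak in the untreated list alone, 16, or 5.02%, had a sense peak in the window in the treated list, beside 4.88% of all eligible genes. Of the 418 genes of the treated list alone, 14, or 3.35%, had one in the untreated list, beside 4.32%. More than 1 antisense peak was found at 0 untreated and 3 treated genes, TMEM63A, FAM174B and JOSD2, which were named after their values were seen.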
